A study of Danio rerio with 4 samples.

Results

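The regions described here are H3K4me3 peaks of the injured zebrafish heart that were called once in each condition, at much the same width. A pair was kept when a Ctrl peak and a DN peak on chromosomes 1 to 25 overlapped by at least 1 bp and neither overlapped any other peak of the other list. Both peaks had to be at least 1 kb and under 3 kb wide, the DN peak had to be 0.67 to 1.5 times as wide as the Ctrl peak, and chromosome 4 from 27 Mb on was left out. This gave 1108 stable pairs, which were 6.43% of the 17234 Ctrl peaks, 3.18% of the 34889 DN peaks and 11.4% of the 9740 one-to-one pairs outside that arm of chromosome 4. The pairs were chosen by overlap, width and the ratio of widths, all read from the same Ctrl and DN lists, so those values describe them and test nothing.

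Adult zebrafish with the transgene ubi:loxp-DsRed-STOP-loxp-DN-xBrg1 alone formed the Ctrl group, and fish that also carried kdrl:CreER formed the DN group. Fish of both groups received 4-HT for 3 days and then had the ventricle amputated, and the ventricles were collected at 7 dpa (days post-amputation) with the outflow tract and atrium taken off. The kdrl promoter drives CreER in endothelial cells, where 4-HT lets it remove the stop cassette and turn on a dominant-negative *Xenopus* Brg1, while the chromatin came from all cells of the ventricle. About 25 hearts were pooled into 1 H3K4me3 library per group, so no difference between Ctrl and DN has a replicate check and no p-value is given. Intervals in brackets are exact 95% binomial intervals, for medians taken from ranked values, and cover counting error only.

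H3K4me3 is trimethylation of lysine 4 of histone H3, and it marks the nucleosomes around the start sites of genes that are transcribed or poised for transcription. A typical promoter carries it on the nucleosomes at both sides of the start site. Brg1 is the ATPase of the SWI/SNF complexes, which slide and evict nucleosomes, and its dominant-negative form blocks that activity. The peaks were called on the GRCz11 assembly, and the genes beside them were not analysed here, so each region is given by its position, and whether it lies at a gene start was not tested.

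The stable pairs were the larger share of the one-to-one pairs of their width. Of 1609 one-to-one pairs with both widths in that range, 1108 (68.9%) met the limits on the ratio, 475 had a DN peak over 1.5 times as wide, and 26 had a DN peak under 0.67 times as wide. The median width was 1440 bp in Ctrl and 1665 bp in DN, and the median ratio of DN to Ctrl width was 1.13, with an interquartile range of 1.01 to 1.29. The pairs covered 1.70 Mb in Ctrl, which was 14.1% of the length under all Ctrl peaks, and 1.93 Mb in DN, which was 6.38% of the length under all DN peaks. They shared 1.59 Mb. The Ctrl and DN peaks of a pair had a median of 81.8% of their joint length in common. In 255 pairs this share was 90% or more, and in 52 it was below 50%.

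The members near the limits show how sharp they were. On chromosome 8 a Ctrl peak from 12892614 to 12894105 was paired with a DN peak 0.677 times as wide, just inside the lower limit, and on chromosome 1 a Ctrl peak from 21030879 to 21033696 was left out at 0.667 times. The pair on chromosome 16 from 11242604 to 11243809 had a ratio of 1.5 and stayed in, and the pair on chromosome 9 from 1202560 to 1203561 was left out at 1.502. The narrowest DN peak kept was 1000 bp wide, beside a Ctrl peak of 1049 bp on chromosome 17 from 31710735 to 31711783, and a pair on chromosome 13 from 31687333 to 31688331 was left out for a Ctrl width 1 bp short of the limit. The widest Ctrl peak kept was 2996 bp wide, on chromosome 7 from 2433494 to 2436489, and a pair on chromosome 21 from 45510542 to 45512859 was left out for a DN width of 3005 bp.

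Where the width was nearly kept, the edges still moved, and most often they moved apart. Both edges lay further outward in DN in 582 pairs (52.5%, 49.5 to 55.5%), beside 63.5% of all one-to-one pairs, and both lay further inward in 62 of the 1108, beside 5.74%. In 232 pairs (20.9%) both edges lay further left and in 216 (19.5%) further right, beside 14.9% each over all one-to-one pairs. In 16 (1.44%) an edge kept its base, beside 0.934%. The sum of both shifts is bounded by the limits on the width. Nothing is thus read from the gap between 52.5% and 63.5% or from the other gaps between these shares. One peak lay wholly within the other in 660 pairs (59.6%), beside 70.1% of all one-to-one pairs.

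**Figure D1:**
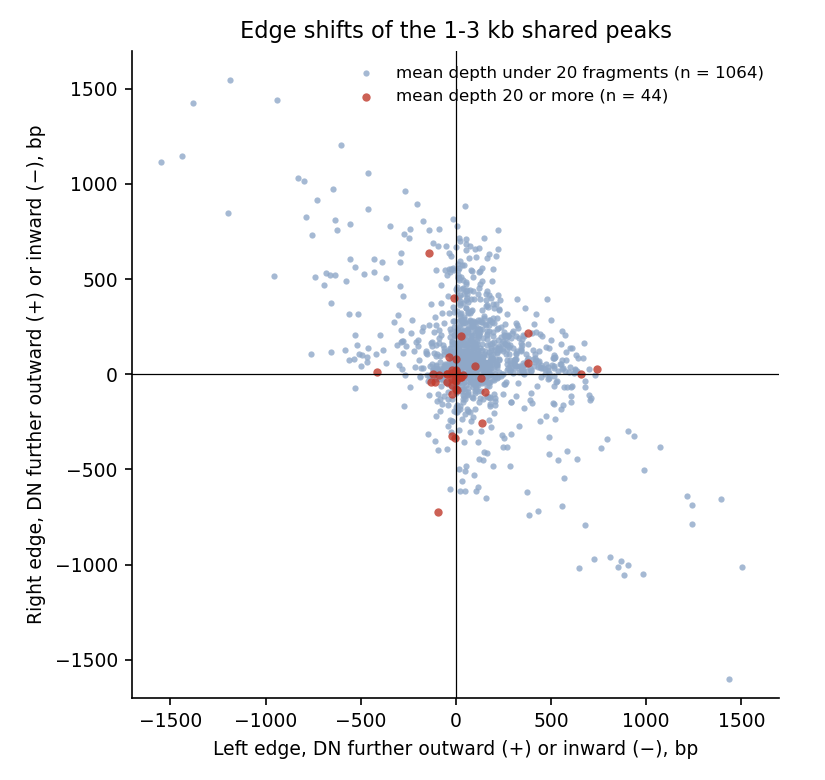
Outward shift of the left edge (x axis, bp) and of the right edge (y axis, bp) from the Ctrl to the DN peak in 1108 stable pairs, 1 point a pair. Points at the upper right grew at both edges (582 pairs), and the red points, the 44 pairs with a mean depth of 20 fragments or more, lie mostly near the origin.

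The left and right edges behaved alike. The left edge lay further outward in 820 pairs (74.0%) and the right edge in 803 (72.5%). Over all one-to-one pairs these shares were both 78.7%. In the stable pairs the median outward shift was 77.5 bp on the left and 74 bp on the right. Without regard to direction, the median shift was 118 bp on the left and 123 bp on the right. At least 1 edge moved by over 200 bp in 604 pairs (54.5%, 51.5 to 57.5%), beside 71.1% of all one-to-one pairs, and both edges stayed within 50 bp in 84 (7.58%), beside 5.39%. Outward moves of over 200 bp numbered 275 on the left and 298 on the right, and inward moves of that size numbered 83 on each side. The midpoint moved by over 200 bp in 281 pairs (25.4%), beside 43.8% of all one-to-one pairs, and its median move was -4 bp, so the moves to the left and to the right balanced.

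The steadiest peaks kept both edges almost to the base. On chromosome 11, the Ctrl peak from 15107100 to 15108536 became a DN peak from 15107094 to 15108536, so its edges moved by 6 bp in sum. A second peak on chromosome 11, from 15142813 to 15144673, and a peak on chromosome 7, from 58648490 to 58650380, each moved by 7 bp in sum. All 3 stood above the 99 percentile of both lists, where the percentile is the rank of a peak by its −log10 q, the significance score of the caller, within its own list, from 0 for the weakest to 100 for the strongest.

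The largest shifts of the midpoint joined regions that overlapped little. On chromosome 1, the Ctrl peak from 49497743 to 49499848 was paired with a DN peak from 49496306 to 49498246, whose midpoint lay 1519.5 bp to the left, and 14.2% of their joint length was shared. On chromosome 3, the midpoint moved 1403 bp to the right between a Ctrl peak from 7115561 to 7117711 and its DN partner, with 21.5% shared. On chromosome 11, it moved 1365.5 bp to the right between a Ctrl peak from 25209087 to 25210569 and its DN partner, with 9.84% shared. In such pairs a like width does not mean that the same bases were marked. The 52 pairs that shared under 50% had a median depth of 8.97 fragments in Ctrl and 9.52 in DN, close to the lowest depths listed.

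Within the limits of the rule, the ratio of widths was lower in the wider Ctrl peaks. The 624 pairs with a Ctrl peak under 1.5 kb had a median ratio of widths of 1.17, and both edges were outward in 58.0%. The median ratio was 1.11 in the 322 pairs from 1.5 to 2 kb, 1.06 in the 116 pairs from 2 to 2.5 kb and 1.01 in the 46 pairs of 2.5 kb or more, where both edges were outward in 21.7% (10.9 to 36.4%). The limit of 3 kb also held for the DN peak, so a wide Ctrl peak had less room to grow. The limit of 1 kb held for it too, so a narrow Ctrl peak had less room to shrink. Both limits shape these ratios and shares, so nothing is read from their fall with width. The sum of both edge shifts, without regard to direction, did not fall steadily with width, at a median of 274.5, 397.5, 342.5 and 243.5 bp in the same order.

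The stable pairs ranked high among the peaks of both conditions. Ctrl peaks had a median −log10 q of 2.82 and their DN partners one of 5.96, and the fold enrichment over the background of the library had a median of 4.11 for Ctrl peaks and 5.04 for DN peaks. By percentile, the median Ctrl peak stood at 76.4 and the median DN peak at 90.003 of 100. The Ctrl peak was in the top 10% of its list in 303 pairs (27.3%, 24.7 to 30.1%), the DN peak in 555 (50.1%, 47.1 to 53.1%) and both in 267 (24.1%). Over all one-to-one pairs these shares were 14.6% for Ctrl, 30.0% for DN and 11.0% for both. High ranks were not particular to the stable pairs. Median percentiles were 74.6 in Ctrl and 89.1 in DN in the 475 pairs whose DN peak was over 1.5 times as wide. With the ratio inside the limits, they were 94.5 and 95.3 where both peaks had 3 kb or more. Where both peaks were under 1 kb, they were 59.8 and 73.7. A −log10 q of 4 or more was reached by both peaks in 298 pairs, by the DN peak alone in 528, by the Ctrl peak alone in 9 and by neither in 273, which were 26.9%, 47.7%, 0.812% and 24.6% of the stable pairs. Over all one-to-one pairs the same shares were 13.5%, 40.01%, 1.39% and 45.1%. The −log10 q values of Ctrl and DN are not on 1 scale. Neither their medians nor the split at 4 is thus read as stronger marking in DN.

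From Ctrl to DN the percentile more often rose than fell. It rose by at least 10 points in 566 pairs (51.1%, 48.1 to 54.1%), where 54.3% of all one-to-one pairs did, and it fell by at least 10 points in 66 (5.96%, 4.64 to 7.52%), where 12.4% of all one-to-one pairs did. It stayed within 10 points in 476 (43.0%), where 33.3% of all one-to-one pairs did. The DN list holds 34889 peaks and the Ctrl list 17234, and a percentile depends on the length of its list. With the DN list shortened to the same number of peaks, 323 stable pairs (29.2%) rose and 265 (23.9%) fell, beside 29.4% and 36.8% of all one-to-one pairs, and the median change was 1.42 points in the stable pairs and -1.96 points in all one-to-one pairs. Of the DN peaks of stable pairs, 1053 stood within the first 17234 of the DN list, and these shares are of all 1108 pairs. The excess of rises over falls in the stable pairs was thus small once the lists were of equal length.

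**Figure D2:**
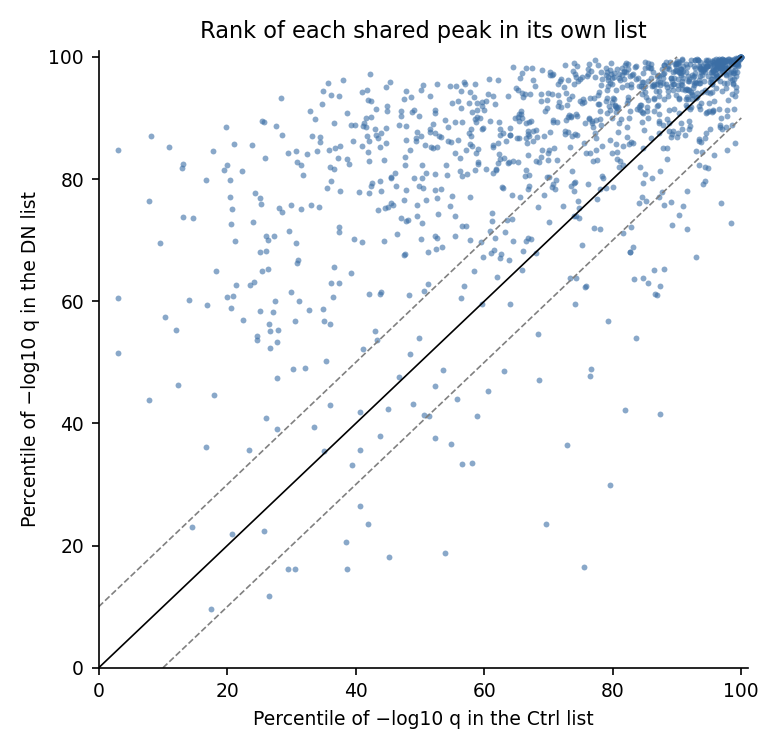
Percentile of −log10 q of each of the 1108 stable pairs among Ctrl peaks (x axis) and among DN peaks (y axis), with the line of equal percentile and dashed lines 10 points to either side. The 566 pairs above the upper dashed line outnumber the 66 below the lower one, in lists of 17234 Ctrl and 34889 DN peaks.

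Counted from the top of each list, the ranks lay closer together. The median rank was 4073.5 of the Ctrl list and 3488.5 of the DN list, and 627 pairs (56.6%) stood nearer the top in DN. Among the 100 strongest peaks of each list, 23 Ctrl and 21 DN peaks belonged to stable pairs, and 19 pairs had both peaks there. Among the 1000 strongest, 195 Ctrl and 234 DN peaks did, and 132 pairs had both. These ranks and counts were not set beside those of all one-to-one pairs, so none is given as particular to the stable pairs. Spearman's rho of −log10 q between Ctrl and DN was 0.70 over the 1108 pairs, a description only, since the points share both libraries and each pair its place in the genome.

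Among the stable pairs, the same 3 stood highest in both lists. The strongest stable peak was on chromosome 16, from 25920840 to 25922491 in Ctrl, with a −log10 q of 233 in Ctrl and 184 in DN and a fold of 55.8 in Ctrl and 44.7 in DN. It was followed by a peak on chromosome 7 from 34467091 to 34468510, with a −log10 q of 108 in Ctrl and 84.0 in DN, and by a peak on chromosome 2 from 3912778 to 3914243, with 84.1 in Ctrl and 70.0 in DN. All 3 scores were lower in DN, and all 3 percentiles stayed above 99.9 in both lists. Their widths hardly changed, at 0.953, 1.08 and 0.998 times the Ctrl width.

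The largest rises in percentile started near the bottom of the Ctrl list, and the largest falls started in its upper part. On chromosome 4, a peak from 736804 to 738282 rose from the 3.07 percentile in Ctrl to 84.7 in DN, with a −log10 q of 1.20 in Ctrl and 4.79 in DN. On chromosome 13, a peak from 36585862 to 36587133 rose from 8.21 to 87.0, and on chromosome 21 a peak from 2332631 to 2335098 rose from 11.0 to 85.3. The largest fall was on chromosome 8, where a peak from 16567514 to 16569013 went from the 75.6 percentile in Ctrl to 16.4 in DN, with a −log10 q of 2.78 in Ctrl and 1.45 in DN. It was followed by a peak on chromosome 16 from 36240840 to 36241911, from 79.5 to 29.9, and by a peak on chromosome 18 from 31477171 to 31478555, from 69.6 to 23.5. The last pair shared only 18% of its joint length, so its fall compares partly different bases.

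To set Ctrl and DN on 1 scale, the mean number of fragments over each base of a peak, here called its depth, was recovered from the listed fold and p-value. The weakest Ctrl peaks stood at 8 fragments and the weakest DN peaks at 7. The background was 1.64 fragments in Ctrl after a scaling of 0.914, and 1.79 in DN with a scaling of 1. Ctrl depths are given before that scaling, so the Ctrl background is not on their scale or on that of the DN background. The authors drew the same number of read pairs for each condition, so depths are set side by side without further scaling. The floor differed between the lists as the edges did, and its part in the edge shifts was not tested. The fold of the Ctrl list was also matched only with its depths scaled by 0.914, and the values that change with that scaling are given beside the results.

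At the stable pairs the depth was more often higher in DN. Each depth is a mean over its own peak, so the Ctrl and DN depths of a pair cover partly different bases. The part of this in the ratios was not tested. The median depth was 10.8 fragments in Ctrl and 13.0 in DN, and the median ratio of DN to Ctrl depth was 1.17. The DN depth was above the Ctrl depth in 818 pairs (73.8%, 71.1 to 76.4%), beside 62.0% of all one-to-one pairs. It exceeded the Ctrl depth by 25% or more in 409 pairs (36.9%, 34.1 to 39.8%), beside 26.6% of all one-to-one pairs, and the Ctrl depth exceeded the DN depth by 25% or more in 66 (5.96%), beside 9.23% of all one-to-one pairs. On this scale the share of stable pairs higher in DN lay above that of all one-to-one pairs, and the share higher in Ctrl lay below it, as a description with no test. An alternative with the Ctrl depths scaled by 0.914 was added after the values were seen. It gave a median ratio of 1.28 in the stable pairs and 1.18 in all one-to-one pairs. By it, 54.3% of the stable pairs were deeper in DN by 25% or more. It lowers the Ctrl depths alone, so it raises every ratio of DN to Ctrl depth by construction.

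The difference followed the depth itself. In the 228 pairs with a mean depth under 10 fragments, the median ratio of DN to Ctrl depth was 0.983. It was 1.19 in the 333 pairs from 10 to 12 fragments, 1.26 in the 340 pairs from 12 to 15, and 1.28 in the 163 pairs from 15 to 20. In the 44 pairs with 20 fragments or more it was 0.821. At the median, the strongest stable peaks were thus deeper in Ctrl, while those from 10 to 20 fragments were deeper in DN. The lowest range was cut by the floors of the lists, since a DN depth below 8 fragments could be listed and a Ctrl depth below 8 could not. Without its 41 pairs below that depth in DN its median ratio was 1.01, and with the scaled Ctrl depths it was 1.08, so no direction is read from the weakest pairs. The strongest stayed below 1 with the scaled Ctrl depths, at 0.898. Other one-to-one pairs of the same depth gave much the same ratios, at 0.952, 1.17, 1.23, 1.21 and 0.815 in the same order, so the ratios are not given as particular to the stable pairs.

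**Figure D3:**
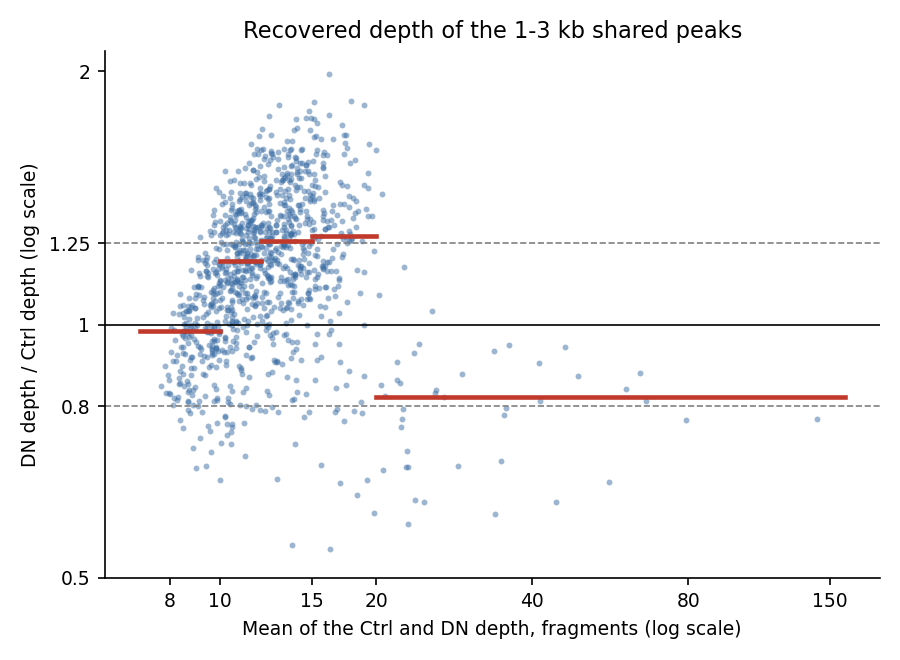
Ratio of DN to Ctrl depth (y axis, log scale) against the mean of both depths in fragments (x axis, log scale) for the 1108 stable pairs, with red lines at the median of each range of depth and dashed lines where either depth exceeds the other by 25%. The medians climb from 0.983 below 10 fragments to 1.28 from 15 to 20 fragments, and the 44 pairs from 20 fragments on have a median of 0.821.

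The 44 strongest pairs, singled out after their values were seen, differed from the rest in depth and in edges alike. Their median depth was 29.3 fragments in Ctrl and 24.2 in DN, and 39 of the 44 were deeper in Ctrl (34 with the scaled Ctrl depths). On the unscaled depths, so were all 11 with a mean depth of 40 or more. The DN depth was higher in 5 of the 44 (11.4%). Among 93 other one-to-one pairs of 20 fragments or more it was higher in 19 (20.4%), so most of those were deeper in Ctrl too. Within the 44, the ratio of DN to Ctrl depth ran from 0.579 to 1.61. The 5 that were deeper in DN included a peak on chromosome 1 from 40517437 to 40519858, with 15.3 fragments in Ctrl and 24.7 in DN, and a peak on chromosome 25 from 26901147 to 26903605, with 16.9 in Ctrl and 24.2 in DN. The 44 lay on 22 chromosomes, with at most 5 on any of them.

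Their edges were the steadiest. The median of the summed edge shift fell with depth, from 425.5 bp under 10 fragments to 336, 288 and 266 bp in the ranges between and to 87 bp at 20 fragments or more. Both edges stayed within 50 bp in 19 of the 44 strongest pairs (43.2%, 28.3 to 59.0%) and in 11 of the 228 weakest. In the strongest pairs both edges were outward in 7 and both inward in 12, and the median ratio of widths was 0.999. In other one-to-one pairs of 20 fragments or more the median summed shift was 81 bp, close to that of the stable pairs. Both edges stayed within 50 bp in 37 of those 93 pairs, so steady edges are not given as particular to the stable pairs.

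The largest single contrasts in depth went in both directions. On chromosome 4, a peak from 148056 to 149320 went from 10.9 fragments in Ctrl to 21.6 in DN, which was 1.98 times the Ctrl depth. On chromosome 15, a peak from 23760646 to 23762055 had 12.6 fragments in Ctrl and 23.1 in DN. The opposite extreme was on chromosome 3, where a peak from 50824564 to 50825877 went from 21.2 fragments in Ctrl to 11.5 in DN, which was 0.541 times the Ctrl depth, over a DN peak of 1868 bp against 1314 bp in Ctrl. On chromosome 17, a peak from 31105621 to 31107448 had 17.8 fragments in Ctrl and 9.74 in DN, with a DN peak of 1300 bp against 1828 bp. These 4 were chosen after their values were seen.

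The neighbouring classes of one-to-one pairs had lower ratios of DN to Ctrl depth at the median than the 1.17 of the stable pairs, by little where the DN peak had widened, and no test was made. The 475 pairs of the same widths that grew by more than 1.5 times had a median ratio of DN to Ctrl depth of 1.16. In 31.6% of them (27.4 to 35.97%) the DN depth was higher by 25% or more. By other measures these 475 leaned further to DN. Their DN depth was above the Ctrl depth in 81.1%, against 73.8% of the stable pairs. Their Ctrl depth was higher by 25% or more in 1.26%, against 5.96%. A higher depth in DN is thus not given as particular to the stable pairs. Pairs within the same limits on the ratio but with both peaks under 1 kb had a median ratio of depths of 0.983, and the 95 with both peaks of 3 kb or more had 0.907. Narrow pairs were weak, with a median of 9.85 fragments in Ctrl against 10.8 in the stable pairs, so width and depth differ together between these classes.

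Most stable pairs had no other stable pair within 10 kb, at 1 pair per 1.17 Mb over the span analysed. So few pairs over a long span leave wide gaps by construction. Whether they lie closer together or farther apart than pairs placed at random was not tested. Neighbouring pairs on a chromosome lay a median of 666 kb apart (596 to 759 kb), from 610 bp to 11158 kb, over 1083 gaps. A gap of at most 10 kb was found for 36 neighbours (3.32%) and one of at most 1 kb for 5 (0.462%). Between neighbours among all one-to-one pairs, a class with more pairs per Mb, these shares were 21.5% and 2.15%. Joined over gaps of up to 10 kb, the pairs formed 1039 single pairs, 30 groups of 2 and 3 groups of 3. The groups of 3 lay on chromosome 3 from 50819094 to 50831346, on chromosome 17 from 39928592 to 39938388 and on chromosome 18 from 31583779 to 31593963, and the first of them holds the peak with the lowest ratio of DN to Ctrl depth.

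The closest neighbours differed from each other in depth or in edge shifts. On chromosome 18, the peaks from 31583779 to 31585324 and from 31585935 to 31587199 were 610 bp apart in Ctrl and 650 bp in DN, with 35.003 fragments in the first and 12.7 in the second in Ctrl, and 32.5 and 12.3 in DN. On chromosome 8, peaks from 34983519 to 34984733 and from 34985489 to 34987159 were 755 bp apart in Ctrl and 663 bp in DN. The first of these grew by 546 bp on its left, and the second moved by 37 bp in sum. On chromosome 21, peaks from 44684957 to 44686165 and from 44687023 to 44689444 were 857 bp apart in Ctrl and 852 bp in DN, with summed shifts of 8 bp and 519 bp. No 2 peaks of a list were closer than 601 bp, so a gap below that could not be listed. The most isolated pair was on chromosome 12 from 48340200 to 48341669, with 11.2 Mb to the nearest other stable pair and 31.1 kb to the nearest other Ctrl peak.

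Other peaks were close by far more often than other stable pairs were. The nearest other Ctrl peak was a median of 11.3 kb away (9.73 to 13.0 kb) and the nearest other DN peak 2.04 kb away (1.82 to 2.26 kb). Over all one-to-one pairs these distances were 11.96 kb and 2.39 kb. A DN-Specific peak, one that overlaps no Ctrl peak, lay within 5 kb of 631 stable pairs (56.9%, 54.0 to 59.9%) and of 51.9% of all one-to-one pairs, and 977 such flanking peaks were counted. The share was 61.5% in the 475 pairs of the same widths whose DN peak was over 1.5 times as wide. With the ratio inside the limits, it was 42.3% where both peaks were under 1 kb and 35.8% where both had 3 kb or more. Such flanking peaks are thus not given as particular to the stable pairs. A Ctrl-Specific peak lay within 5 kb of 126 stable pairs (11.4%, 9.56 to 13.4%) and of 10.2% of all one-to-one pairs. Of the stable pairs, 477 had no DN-Specific peak within 5 kb, 386 had 1, 162 had 2 and 83 had more. The DN list is the longer one, and the part of its length in these counts was not tested.

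**Figure D4:**
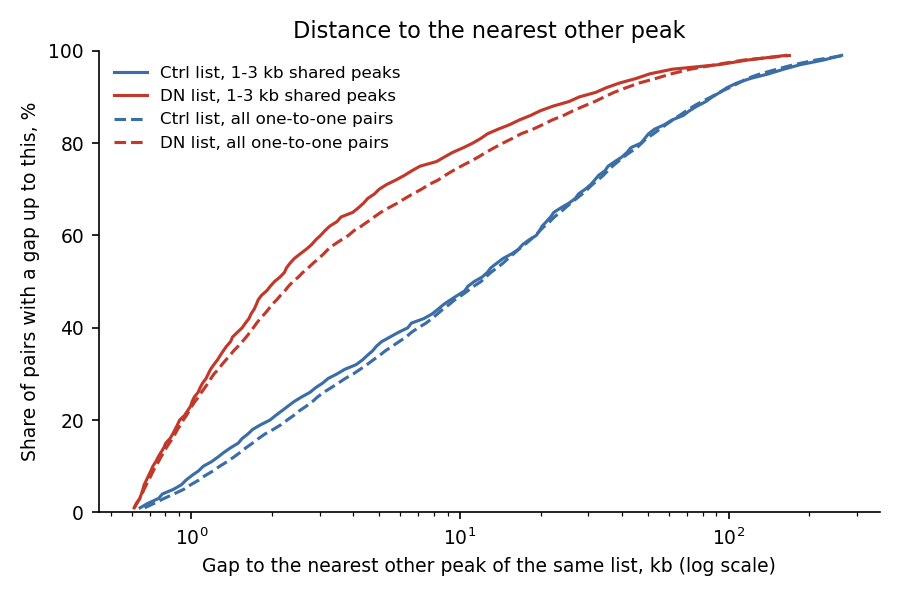
Share of pairs (y axis, %) whose nearest other peak of the same list lies within the gap on the x axis (kb, log scale), for the 1108 stable pairs (solid) and all 9740 one-to-one pairs (dashed), in the Ctrl list (blue) and the DN list (red). The DN curves lie to the left of the Ctrl curves, with medians of 2.04 kb and 11.3 kb in the stable pairs, and solid and dashed curves run close together.

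Every chromosome held stable pairs. The density was 0.857 pairs per Mb over 1293 Mb, from 0.443 on chromosome 9 (25 pairs) to 1.304 on chromosome 22 (51 pairs), and chromosome 3 held the most, 77. Over the 25 chromosomes it followed the density of all Ctrl peaks, with a Spearman's rho of 0.71 as a description. As a share of the Ctrl peaks of the chromosome, stable pairs made up 4.20% (2.71 to 6.18%) on chromosome 10 and 8.72% (6.86 to 10.9%) on chromosome 2. The interval of 22 of the 25 chromosomes held the overall share of 6.73% outside the arm of chromosome 4. The median ratio of DN to Ctrl depth was above 1 on all 25 chromosomes, from 1.02 on chromosome 22 to 1.27 on chromosome 6, and so was the median ratio of widths, from 1.06 to 1.20. Within 2 Mb of a chromosome end lay 123 stable pairs (11.1%), beside 12.2% of all one-to-one pairs.

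**Figure D5:**
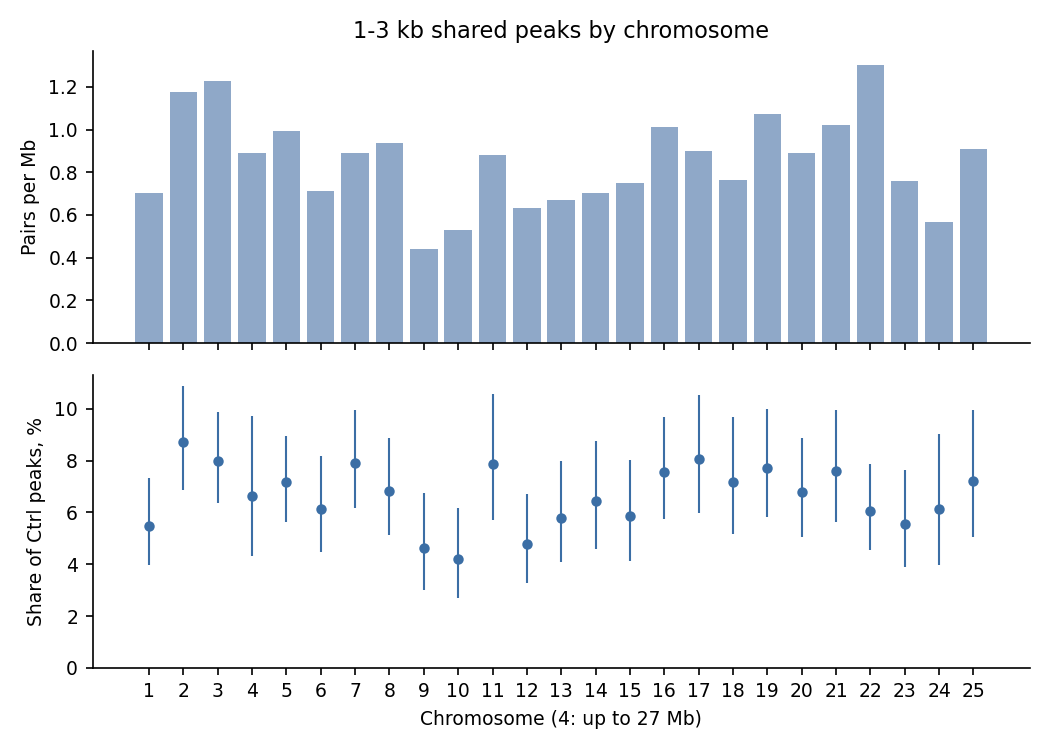
Stable pairs per Mb of each chromosome (upper bars) and as a share of its Ctrl peaks in % with exact 95% binomial intervals (lower points), with chromosome 4 counted up to 27 Mb. Density runs from 0.443 per Mb on chromosome 9 to 1.304 on chromosome 22, and the share from 4.20% on chromosome 10 to 8.72% on chromosome 2.

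A few windows were dense. Of 1308 windows of 1 Mb, 633 held no stable pair and 416 held 1. The most crowded were chromosome 22 from 1 to 2 Mb with 12 pairs and from 2 to 3 Mb with 11, then chromosome 8 from 34 to 35 Mb with 9. The stretch of chromosome 22 from 1 to 3 Mb also held 311 Ctrl and 477 DN peaks of any kind, of 842 and 1687 on that chromosome. It was thus dense in peaks of any kind. Outside the arm of chromosome 4, stable pairs were 6.73% of all Ctrl peaks. Whether a window held more stable pairs than its peaks would give was not tested. The 23 pairs of this stretch were shallow, with a median depth of 9.15 fragments in Ctrl and 8.72 in DN. Their ratio of DN to Ctrl depth was 0.984 at the median, from 0.754 to 1.18, while it was 1.11 in the 28 other pairs of that chromosome. The 9 pairs of chromosome 8 lay among 59 Ctrl and 67 DN peaks of any kind. These 9 had a median ratio of 0.916, and 2 of them were deeper in DN, while the 42 other pairs of chromosome 8 had 1.13.

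The dense windows were not alike in depth. Chromosome 16 from 36 to 37 Mb, chromosome 25 from 13 to 14 Mb and chromosome 3 from 32 to 33 Mb held 6 pairs each. In the same order, these windows held 56, 23 and 34 Ctrl peaks of any kind. All 6 on chromosome 16 were deeper in Ctrl, with a median ratio of 0.870 against 1.254 in the rest of that chromosome. On chromosome 25, 2 of the 6 were deeper in DN and the median was 0.850. On chromosome 3 all 6 were deeper in DN, with a median of 1.21. Median depths were 11.0 fragments in Ctrl and 8.95 in DN on chromosome 16, and 10.6 and 8.83 on chromosome 25. On chromosome 3 they were 9.85 and 11.9. The weakest listed peaks stood at 8 fragments in Ctrl and 7 in DN. Each window holds only 6 stable pairs, so no regional change is read from them. Without the 23 pairs of chromosome 22 from 1 to 3 Mb, the density of that chromosome was 0.754 pairs per Mb, both edges were outward in 53.0% of the remaining 1085 pairs, and their median ratio of DN to Ctrl depth was 1.17.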

How the data were processed

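ChIP-seq peak lists of H3K4me3 were analysed for 1 Ctrl and 1 DN library. The authors trimmed reads with Trimmomatic 0.39, kept unique alignments of STAR 2.7.8a to GRCz11, removed duplicates with Picard 2.25.0, drew the same number of read pairs per condition and called broad peaks with MACS2 at a q-value of 0.0001, without model or local lambda. Whether the inputs entered the call was not given in the sources used here, and the inputs were not analysed here. The deposited values per peak are its position, the fold over the background of the library, −log10 of the p-value and of the q-value, and a score, 10 times the −log10 q; all but position are means over the peak. Among all one-to-one pairs the listed −log10 q went down to 1.20 in Ctrl and 1.31 in DN, while a q-value of 0.0001 is a −log10 q of 4. A listed peak thus need not reach that score, and how the listed values relate to the setting was not tested. The deposited lists hold no read totals, and the drawing of equal numbers of read pairs is as the authors state it.

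Pairs, edges, percentiles, gaps and exact 95% binomial intervals were computed in Python 3.11.15 with numpy 2.4.6, pandas 2.3.3 and scipy 1.17.1, and drawn with matplotlib 3.10.9. Starts are given 1-based. Percentiles used all peaks of a list on chromosomes 1 to 25. Depth was solved from the deposited fold and −log10 p, taking fold as (depth times a scaling plus 1) over (background plus 1) and p as a Poisson tail. The background in it is the value after scaling. A depth of 8 fragments with a scaling of 0.914 in Ctrl, and of 7 with a scaling of 1 in DN, matched the weakest peaks best, with errors of 0.00748% and 0.00642% in the slope of −log10 p on fold against 2.22% and 6.48% for the next best. This relation was inferred, not stated by the authors. Pairing and the solving of depth were run on simulated data. The simulated depths followed the same relation, so they could not test whether it holds for the deposited values.

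Positions named were the 3 strongest pairs of each list, the 3 largest rises and falls in percentile, the 3 smallest summed edge shifts and largest midpoint shifts, those at each limit, the 3 closest neighbours and the most isolated pair. Members, lists and thresholds were chosen with earlier results of these data known. Alternatives in width, ratio, overlap, threshold, merging of peaks under 1 kb apart and chromosome 4 were computed. Genes near the peaks, planned where an annotation of GRCz11 could be used, were not analysed here.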

Additional observations from a re-analysis of the deposited data

How the results depend on the processing

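Of 78 alternative values for 10 results, 43 stayed within the interval of the reported value, within 1.5 times a count, or within 0.1 of Spearman's rho. The median ratio of DN to Ctrl depth under 10 fragments, 0.983 as reported, lay above 1 under both of its alternatives, at 1.01 and 1.08. No paired analysis was possible because Ctrl and DN have 1 library each. The number of pairs was 1697 with both widths from 0.75 to 4 kb, 322 from 1.5 to 2.5 kb, 725 with the DN peak at most 25% wider or 20% narrower than the Ctrl peak, and 303 with peaks of −log10 q of at least 4 only. Under those settings in the same order, the median gap between neighbouring pairs was 424, 2031, 1114 and 2780 kb. Both edges were outward in 46.0% of pairs from 1.5 to 2.5 kb and in 41.4% with the tighter ratio. An edge moved by over 200 bp in 51.4% with the wider window of widths, in 32.4% with the tighter ratio and in 47.9% with −log10 q of at least 4. With 100 bp in place of 200 bp the share was 80.8%, and with 500 bp it was 18.2%.

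The share of pairs whose percentile rose by at least 10 points was 42.2% from 1.5 to 2.5 kb, 67.0% with −log10 q of at least 4, 33.3% with percentiles among the one-to-one pairs only, and 33.5% for 20 points. The share that fell was 4.35%, 7.92%, 22.9% and 2.35% under the same settings, and 7.86% with peaks under 1 kb apart merged. In lists of equal length, an alternative chosen after seeing the data, 29.2% rose and 23.9% fell. Spearman's rho of −log10 q was 0.45 with −log10 q of at least 4.

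Depth was likewise added after seeing the data. The DN depth was higher by 25% or more in 33.5% of pairs from 1.5 to 2.5 kb, in 28.7% with −log10 q of at least 4 and in 32.4% after merging. The Ctrl depth was higher by 25% or more in 11.6% with −log10 q of at least 4. With the Ctrl depths scaled by 0.914, the DN depth was higher by 25% or more in 54.3% and the Ctrl depth in 2.62%. The cause of these moves was not tested, apart from the fewer pairs, the changed threshold or the lowered Ctrl depths that a setting brings by construction.

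With 1 library per group, counting intervals say nothing of the spread between hearts or libraries. Most depths lay within a few fragments of the floor. Among the stable pairs, edges moved most in the shallowest range. In other one-to-one pairs the median summed edge shift was 584 bp under 10 fragments and 650.5 bp from 10 to 12. How certain the edges of weak pairs are was not tested.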
